A study of Mus musculus with 8 samples.

Results

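MHC class II molecules are surface proteins, each made of an α and a β chain, that present peptides from endocytosed material to CD4+ T cells. They are made constitutively by B cells, dendritic cells and macrophages, and most other cells make them only after exposure to interferon-gamma (IFN-γ). IFN-γ acts through JAK kinases to switch on the gene of the coactivator CIITA, which binds to an assembly of RFX, CREB and NF-Y proteins sitting on short promoter boxes shared by the class II genes. The 10 genes described here were taken by name as the class II machinery and its regulators, and all 10 were found by symbol among the 45556 named genes of the deposited table. They are the regulators Ciita and Rfx5, the chains H2-Aa, H2-Ab1 and H2-Eb1, the peptide-loading chains H2-DMa and H2-DMb1, the invariant chain gene Cd74, and the processing genes Ctss and Ifi30.

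The samples are cultures of B16F10, a mouse melanoma line, sequenced as bulk RNA. The 4 groups, with 2 libraries each, were shDRG2 cells (a hairpin against Drg2) given IFN-γ at 5 ng/ml for 24 hours, pLKO cells (the hairpin's empty vector) given the same IFN-γ, shDRG2 cells without IFN-γ, and pLKO cells without IFN-γ. Each line is represented once, so the effect of losing DRG2 and any other effect of the hairpin cannot be told apart. The labels do not tell whether the 2 replicates were grown separately, and every p-value therefore refers to the spread between libraries, which may be technical. In pLKO cells with IFN-γ, replicate 1 lay below replicate 2 for 9 of the 10 genes, by as much as 1.80-fold for H2-Aa. For the comparisons that replicate 1 enters, the values of some of the genes are also given without it. Library totals ran from 25422758 to 36654519 estimated counts, and 13500 genes passed a filter on low counts. Drg2 was at 6.46 and 7.66 CPM (the depth-scaled count of edgeR) in shDRG2 cells and 72.3 and 64.3 CPM in pLKO cells with IFN-γ, and at 8.68 and 9.34 CPM in shDRG2 cells and 76.3 and 68.6 CPM in pLKO cells without it.

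The labelled cell type was checked first, since leukocytes in a culture would bring class II transcripts of their own. The summed level of 19 markers of B cells, dendritic cells, macrophages, T cells and leukocytes in general was 8.90 to 9.05 CPM in shDRG2 cells and 9.72 to 10.6 CPM in pLKO cells with IFN-γ, and 10.1 to 11.7 CPM in shDRG2 cells and 9.04 to 11.7 CPM in pLKO cells without it. Most of that sum came from Zbtb46, at 7.12 to 10.6 CPM over the 8 libraries. Ms4a1, Itgax, Flt3, Xcr1, Adgre1, Itgam, C1qa, C1qb, Cd3e and Cd3g had 0 counts in every library, where 3 counts correspond to 0.0821 to 0.116 CPM, and Ptprc had 1 count in 1 library. Csf1r, Lyz2, Laptm5 and Coro1a had 12 counts or fewer in every library, and Cd79a had 13 or fewer. Cd68 had 19 and 14 counts with IFN-γ, against 10 and 5 without, in shDRG2 cells. In pLKO cells Cd68 had 29 and 28 counts with IFN-γ, against 19 and 24 without. Of the 19, 4 were tested: Cd68, Cd79a, Cd79b and Zbtb46. Among them Cd79b, a B cell receptor subunit gene, was tested only because of its counts with IFN-γ, with 13 and 13 counts with IFN-γ, against 0 and 0 without, in shDRG2 cells, and 25 and 13 counts with IFN-γ, against 0 and 0 without, in pLKO cells. The 7 melanocyte genes Pmel, Mlana, Tyr, Tyrp1, Dct, Mitf and Sox10 summed to 9621 to 10120 CPM in shDRG2 cells and 10960 to 11060 CPM in pLKO cells with IFN-γ, and to 13870 to 14940 CPM in shDRG2 cells and 12910 to 13030 CPM in pLKO cells without it. After IFN-γ, 6 of these 7 fell in shDRG2 cells and 4 in pLKO cells, where 15.2% and 12.7% of all tested genes were called lower, and the part of that shift in the class II values was not tested.

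The promoters of 3 of the genes are shown because they carry the boxes through which RFX5 and CIITA are known to act. The X core was searched as GNAACT and the Y box, which NF-Y binds, as ATTGG, on both strands of windows from 250 bases before to 50 after each start annotated in RefSeq (GRCm38.p6, the assembly of mm10). These letters were chosen after the windows had been read. Windows of 7 of the 10 genes were searched, and Ciita, H2-Ab1 and Cd74 were not. An X core followed by a Y box on the same strand after 20 to 35 bases was present in 235 of 32851 windows, or 0.715%, and in those of H2-Aa, H2-Eb1 and H2-DMb1. Capitals mark the X core (first) and the Y box (second), and each sequence lies wholly before the RefSeq start, on the strand of the gene (GENCODE starts H2-DMb1 farther upstream).
H2-Aa (chr17:34287847-34287924, minus strand): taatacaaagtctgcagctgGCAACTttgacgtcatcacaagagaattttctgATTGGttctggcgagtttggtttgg
H2-Eb1 (chr17:34305756-34305832, plus strand): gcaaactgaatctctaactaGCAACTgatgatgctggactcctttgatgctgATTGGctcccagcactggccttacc
H2-DMb1 (chr17:34153077-34153154, plus strand): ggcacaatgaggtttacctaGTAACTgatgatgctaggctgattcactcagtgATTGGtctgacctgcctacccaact
The gap between both boxes was 27 bases in H2-Aa, 26 in H2-Eb1 and 27 in H2-DMb1, and the X core began 81, 91 and 94 bases before the start.

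The processing gene Ctss is shown beside them for a different element. The interferon-stimulated response element, which interferon regulatory factors bind, was searched as GAAA, any 2 bases and GAAA, and was in 3.44% of the windows. Of the 7 genes searched it was found in Ctss alone, 21 bases before the start, in capitals below.
Ctss (chr3:95526745-95526785, plus strand): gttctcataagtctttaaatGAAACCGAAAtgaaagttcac
The 2 windows of H2-DMa and those of Rfx5 and Ifi30 did not hold the X core and Y box in the spacing above.

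Of the 10 genes, 5 lie together on chromosome 17 in GENCODE M21 (GRCm38): H2-DMa (34119541 to 34139101), H2-DMb1 (34153072 to 34160230), H2-Ab1 (34257689 to 34269419), H2-Aa (34282744 to 34287823, the only one of these on the minus strand) and H2-Eb1 (34305867 to 34316674). Ciita is on chromosome 16 (10480059 to 10528418, plus strand), Rfx5 (94954075 to 94961561, plus strand) and Ctss (95526786 to 95556403, plus strand) on chromosome 3, Ifi30 on chromosome 8 (70762774 to 70766663, minus strand) and Cd74 on chromosome 18 (60803848 to 60812652, plus strand). Strandedness is not stated, and the antisense gene B230398E01Rik shares 26.8% of the exon bases of Rfx5, Brd2 on the opposite strand shares 10.4% of those of H2-DMa, and 6330537M06Rik shares 8.66% of those of Ifi30. Whether the reads of these stretches were separated by strand is not known.

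In both lines, 7 of the 10 genes were close to silent without IFN-γ: Ciita, H2-Aa, H2-Ab1, H2-Eb1, H2-DMa, Cd74 and Ctss had 0 to 13 counts a library. Rfx5, H2-DMb1 and Ifi30 were expressed at rest. The 7 passed the filter only through the IFN-γ libraries, so they had to differ to be tested and their number is only a description. With IFN-γ, 9 of the 10 genes were called higher and 1, Ifi30, lower in each line, where 31.4% of all tested genes were called in shDRG2 cells (16.2% higher and 15.2% lower) and 28.1% in pLKO cells (15.4% higher and 12.7% lower). In pLKO cells without IFN-γ replicate 1, the 3 genes expressed at rest had log2 fold changes of 4.24 (H2-DMb1), 0.95 (Rfx5) and -0.75 (Ifi30). Over all alternative fits, among them each library left out, these ran from 3.98 to 4.24, from 0.73 to 1.00 and from -0.77 to -0.69. A gene was called where the Benjamini-Hochberg adjusted p of edgeR's two-sided quasi-likelihood F test, taken over the 13500 genes, was under 0.05. In bulk RNA, more cells with a transcript and more RNA per cell cannot be told apart.

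Ciita, the master regulator, had 119.6 and 119.2 CPM with IFN-γ in shDRG2 cells, against 0 and 1 counts without. In pLKO cells it had 89.0 and 95.4 CPM with IFN-γ, against 1 and 0 counts without. The ratio over the summed counts was 6922 in shDRG2 cells (95% counting interval 1242 to 273400, 7950 against 1 count) and 5986 in pLKO cells (1074 to 236500, 5533 against 1 count). Such intervals cover counting error only, and they are wide because the lower group holds a single count.

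Rfx5, the gene of the RFX subunit that contacts the X box, was expressed without stimulation and rose less than 2-fold. It was at 34.9 and 36.0 CPM with IFN-γ, against 19.7 and 19.9 CPM without, in shDRG2 cells (log2 fold change 0.84, SE 0.105, adjusted p = 0.000162). In pLKO cells it was at 30.7 and 34.4 CPM with IFN-γ, against 16.4 and 19.6 CPM without (0.86, SE 0.105, adjusted p = 0.000176). In neither line did the libraries with and without IFN-γ overlap.

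Among the chains, H2-Aa, the α chain of I-A, had 82.6 and 94.6 CPM with IFN-γ in shDRG2 cells, against 1 count in each unstimulated library, a ratio of 2584 (counting interval 715 to 21350). In pLKO cells H2-Aa had 38.3 and 68.9 CPM with IFN-γ, against 0 counts in both unstimulated libraries. Taking 3 counts over the group as the floor, the ratio was 1189, and the counting interval at 0 counts began at 966. H2-Ab1, its β chain partner, had 86.8 and 102.4 CPM with IFN-γ in shDRG2 cells, against 1 and 0 counts without, and 51.7 and 76.2 CPM with IFN-γ in pLKO cells, against 0 and 2 counts without.
H2-Eb1, the β chain of I-E, had 89.0 and 108.0 CPM with IFN-γ in shDRG2 cells, against 0 and 1 counts without, and 58.0 and 80.3 CPM with IFN-γ in pLKO cells, against 3 and 1 counts without. The ratio over summed counts was 5528 for H2-Ab1 (counting interval 992 to 218400) and 5762 for H2-Eb1 (1034 to 227600) in shDRG2 cells, and 2108 (583 to 17410) and 1136 (443 to 4171) in pLKO cells. The matching α chain gene, listed as H2-Ea-ps and known to be defective in C57BL/6 mice, from which B16F10 comes, had 0 counts in all 8 libraries.

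The invariant chain gene Cd74, whose product fills the class II groove during assembly, reached the highest level of the group, at 412.6 and 395.6 CPM in shDRG2 cells and 192.4 and 297.7 CPM in pLKO cells with IFN-γ. Without IFN-γ it had 0 and 5 counts in shDRG2 cells and 4 and 0 counts in pLKO cells. The ratio was 4675 in shDRG2 cells (counting interval 2003 to 14400) and 4047 in pLKO cells (1580 to 14850).

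The loading chains H2-DMa and H2-DMb1 form H2-DM, which exchanges the invariant chain remnant for peptide. H2-DMa had 86.0 and 88.8 CPM with IFN-γ, against 9 and 5 counts without, in shDRG2 cells, and 55.4 and 71.9 CPM with IFN-γ, against 13 and 6 counts without, in pLKO cells. Its ratio was 362 in shDRG2 cells (counting interval 216 to 663) and 219 in pLKO cells (140 to 365). H2-DMb1, unlike H2-DMa, was well above the floor of 3 counts without stimulation. It had 107.2 and 109.0 CPM with IFN-γ, against 7.52 and 6.39 CPM without, in shDRG2 cells (log2 fold change 3.95, SE 0.125, adjusted p = 3.87e-09), and 62.3 and 74.0 CPM with IFN-γ, against 4.31 and 3.60 CPM without, in pLKO cells (4.11, SE 0.132, adjusted p = 4.33e-09).

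Of the processing genes, Ctss, the gene of cathepsin S, the protease that trims the invariant chain, was low throughout. It had 9.63 and 8.48 CPM with IFN-γ in shDRG2 cells, against 0 counts in both unstimulated libraries. Against the same floor the ratio was 174, and the counting interval at 0 counts began at 141. In pLKO cells it had 6.12 and 8.13 CPM with IFN-γ, against 0 and 1 counts without, a ratio of 467 (counting interval 83.4 to 18500).
Ifi30, the gene of the lysosomal thiol reductase GILT that opens disulphide bonds of antigens, ran the other way, although its symbol comes from induction by interferon in human cells. It fell to 16.7 and 17.1 CPM with IFN-γ, against 25.8 and 20.3 CPM without, in shDRG2 cells (log2 fold change -0.45, SE 0.119, adjusted p = 0.0157), and to 15.2 and 14.5 CPM with IFN-γ, against 25.2 and 23.9 CPM without, in pLKO cells (-0.73, SE 0.120, adjusted p = 0.00120). The groups did not overlap in either line. Unlike the other genes described here, Ifi30 is listed in GENCODE M21 as a processed transcript and not as protein-coding. Whether its counts come from the coding mRNA is not known. The fall in shDRG2 cells was no longer called without shDRG2 replicate 1 (-0.26, adjusted p = 0.144), without shDRG2 IFN-γ replicate 1 (-0.43, adjusted p = 0.0861) or without shDRG2 IFN-γ replicate 2 (-0.46, adjusted p = 0.0642).

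**Figure D1:**
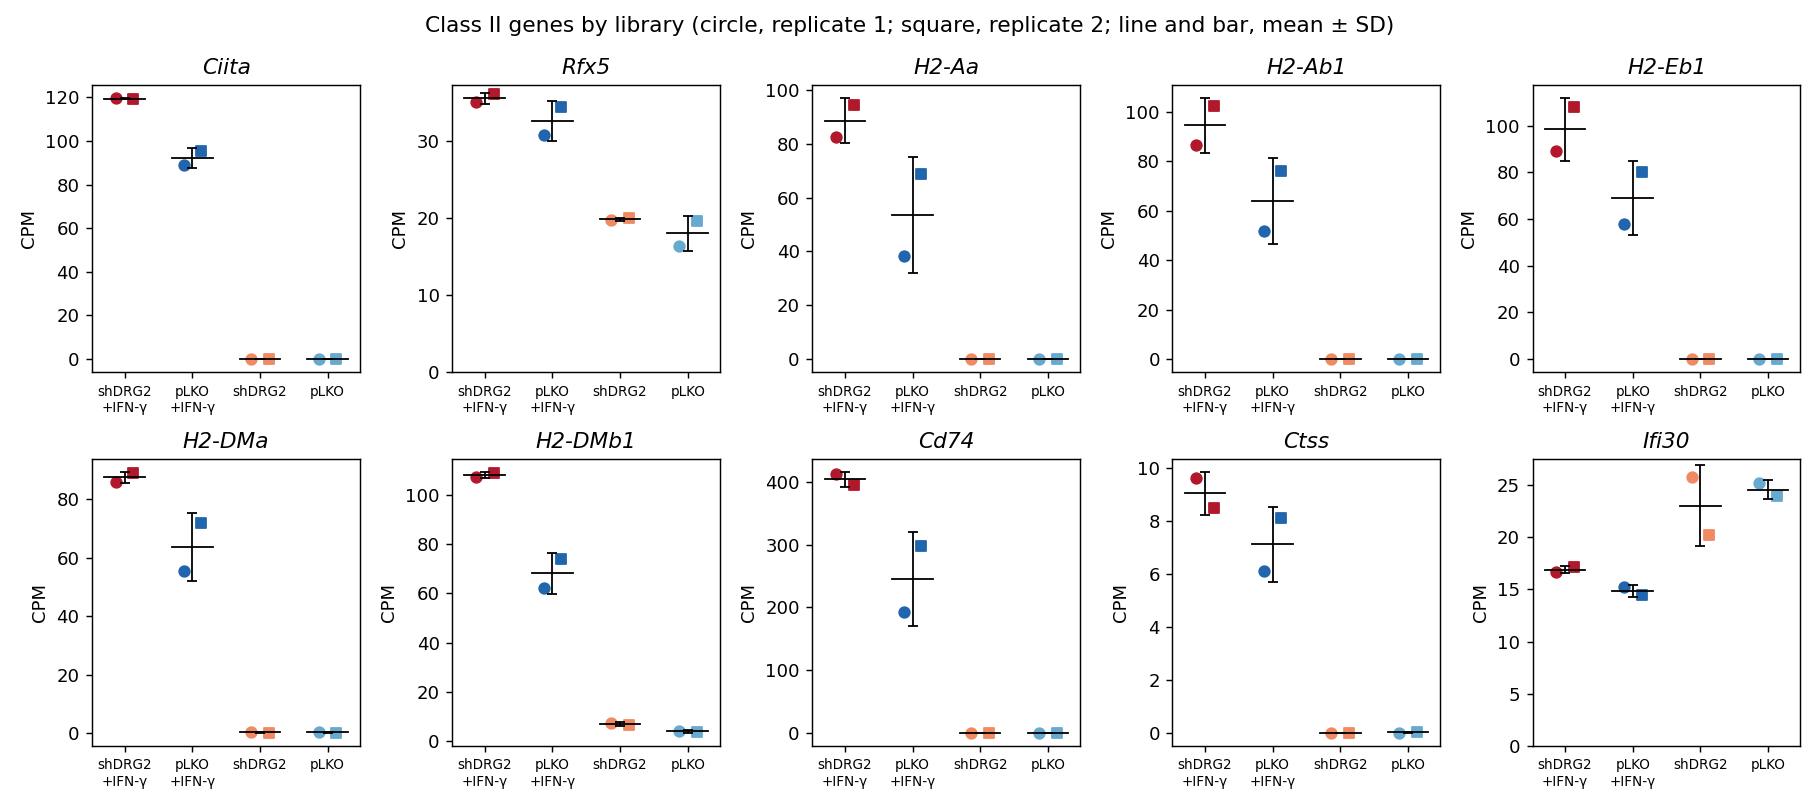
CPM (depth-scaled counts, linear axis) of each of the 10 genes in the 8 libraries, by group, with circles for replicate 1, squares for replicate 2, and a line and bar for the mean ± SD of 2 libraries. With IFN-γ, Cd74 stood at 412.6 and 395.6 CPM in shDRG2 cells and 192.4 and 297.7 CPM in pLKO cells, and Ifi30 is the panel in which the IFN-γ libraries lie below the others.

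Levels of different genes were compared per kilobase of annotated exon (CPM per kb). With IFN-γ, Cd74 led in both lines, at 240.7 ± 7.19 CPM per kb in shDRG2 cells and 145.9 ± 44.3 CPM per kb in pLKO cells (SD, n = 2 each), rank 165 and 282 of 12802 tested genes with a length. In shDRG2 cells the order below it was H2-DMb1 (64.3 ± 0.728), H2-Eb1 (50.7 ± 6.90), H2-Ab1 (36.8 ± 4.30), H2-DMa (25.4 ± 0.567), H2-Aa (23.3 ± 2.22), Ifi30 (17.2 ± 0.311), Ciita (12.5 ± 0.0300), Ctss (6.67 ± 0.598) and Rfx5 (6.45 ± 0.131). Of these neighbours, the library ranges of Ctss and Rfx5 overlapped and those of the others did not.
In pLKO cells the ranges overlapped between H2-DMb1 (40.6 ± 4.94) and H2-Eb1 (35.6 ± 8.13), between H2-Ab1 (24.9 ± 6.74) and H2-DMa (18.5 ± 3.39), between Ifi30 (15.1 ± 0.557) and H2-Aa (14.1 ± 5.70), and between Rfx5 (5.92 ± 0.470) and Ctss (5.25 ± 1.05), with Ciita at 9.67 ± 0.472. Without IFN-γ, Ifi30 led at 23.5 ± 3.97 CPM per kb in shDRG2 cells and 25.1 ± 0.943 in pLKO cells. H2-DMb1 (4.14 ± 0.476 in shDRG2 and 2.35 ± 0.299 in pLKO cells) and Rfx5 (3.60 ± 0.0301 and 3.27 ± 0.416) came next, and the others were under 0.1 CPM per kb on average. The length moves this order: with the longest transcript in place of all exons, H2-Ab1 (78.0) stood level with H2-DMb1 (77.0) in shDRG2 cells. In pLKO cells the mean of H2-Ab1 was above that of H2-DMb1 (52.8 and 48.5), but their library ranges overlapped. By that length Ciita (19.88) also stood above Ifi30 (17.23) in shDRG2 cells with IFN-γ, and level with it in pLKO cells (15.35 and 15.14).

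**Figure D2:**
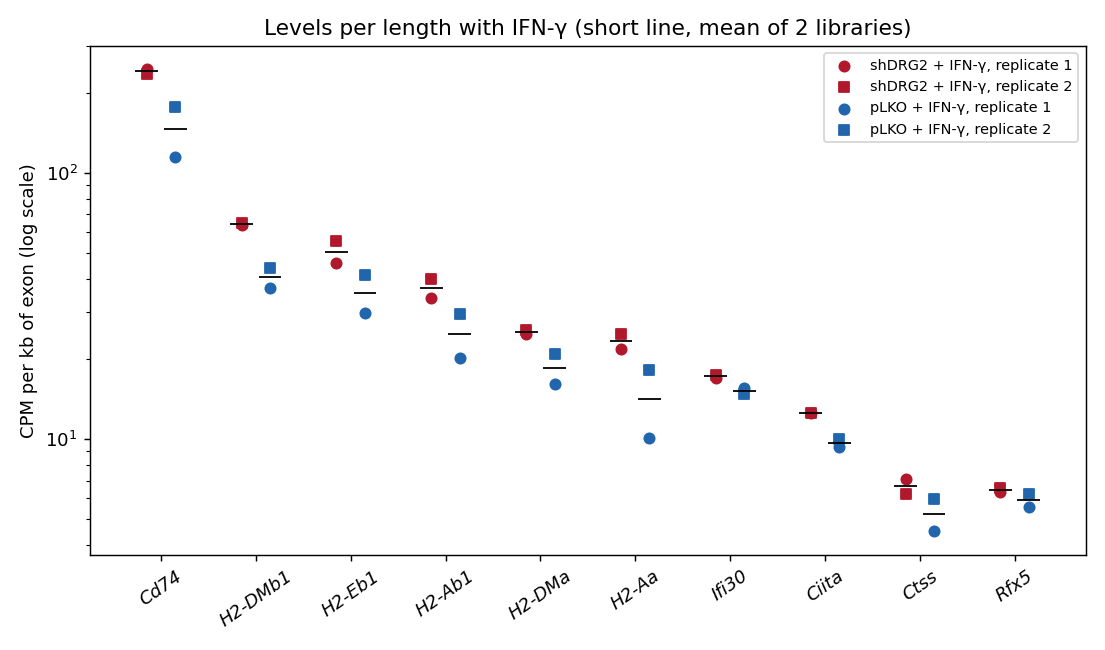
CPM per kb of exon (log axis) of the 10 genes with IFN-γ, ordered by their mean in shDRG2 cells, with circles for replicate 1, squares for replicate 2 and a short line for the mean. Cd74 averages 240.7 in shDRG2 cells and 145.9 in pLKO cells, and Rfx5 and Ctss are the lowest.

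With IFN-γ, the class II genes stood higher in shDRG2 than in pLKO cells, but only H2-DMb1 was called. All 10 genes had both shDRG2 libraries above both pLKO libraries, an arrangement found in 20.2% of all tested genes. Their median log2 fold change was 0.48, against 0.00 over all tested genes. Of the 10, 1 was called higher and none lower, where 1.67% of tested genes were called, 0.504% higher and 1.17% lower. At an unadjusted p under 0.05 there were 7 of the 10, and 1616 of all 13500 tested genes.
H2-DMb1 was at 108.1 ± 1.22 CPM in shDRG2 cells and 68.2 ± 8.31 CPM in pLKO cells (SD, n = 2 each), a rise of 0.66 on the log2 scale (SE 0.104, 95% interval 0.43 to 0.90, adjusted p = 0.0129). With its near copy H2-DMb2 added the value was 0.67 (adjusted p = 0.0131). The call ended when either shDRG2 IFN-γ library was left out (0.68 with adjusted p = 0.108 without replicate 1, 0.65 with adjusted p = 0.103 without replicate 2) and without pLKO IFN-γ replicate 1 (0.55, adjusted p = 0.0772).

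Cd74 averaged 404 ± 12.1 CPM in shDRG2 cells and 245 ± 74.4 CPM in pLKO cells (log2 fold change 0.72, 95% interval 0.28 to 1.16, adjusted p = 0.124). The chains gave 0.72 for H2-Aa (0.24 to 1.20, adjusted p = 0.173), 0.56 for H2-Ab1 (0.19 to 0.93, adjusted p = 0.160) and 0.51 for H2-Eb1 (0.17 to 0.84, adjusted p = 0.159). H2-DMa was at 0.46 (0.18 to 0.73, adjusted p = 0.124) and Ciita at 0.37 (0.17 to 0.58, adjusted p = 0.0878). The unadjusted intervals of these 6 genes lay above 0, and none of the 6 passed the adjusted threshold.
Rfx5 (0.12, interval -0.10 to 0.35), Ctss (0.34, interval -0.13 to 0.81) and Ifi30 (0.19, interval -0.08 to 0.46) had intervals that include 0, with adjusted p = 0.742, adjusted p = 0.607 and adjusted p = 0.635. DESeq2 called 6 of the 10 genes, Ciita, H2-Aa, H2-Ab1, H2-Eb1, H2-DMa and H2-DMb1, and 298 of all genes. edgeR without a filter called these 6 and Cd74, and 653 of all genes.

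**Figure D3:**
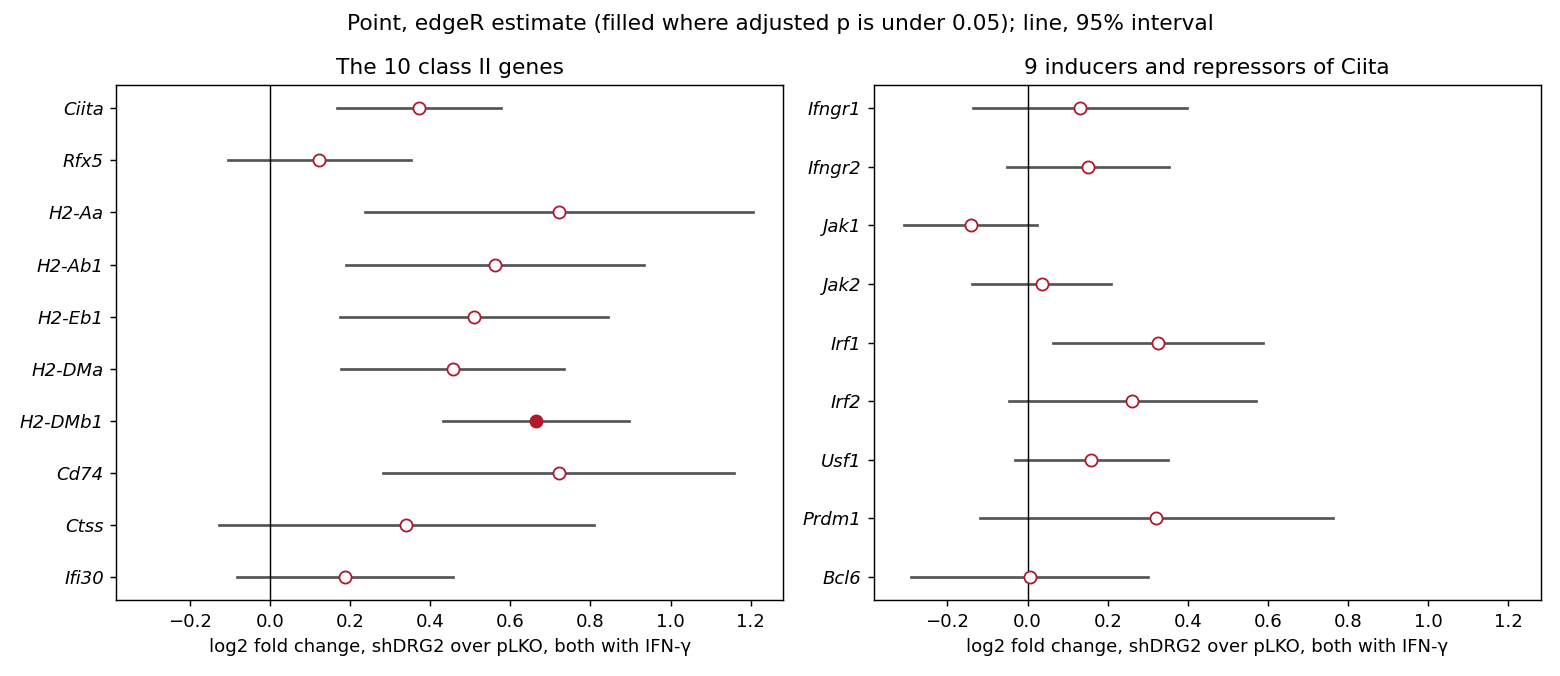
Log2 fold change of shDRG2 over pLKO cells, both with IFN-γ, for the 10 class II genes (left) and 9 inducers and repressors of Ciita (right). Points are edgeR estimates, filled where the adjusted p is under 0.05, and lines are 95% intervals. H2-DMb1, at 0.66, is the only filled point, and the intervals of 7 class II genes lie above 0.

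The size of this difference moved with either pLKO library. Within pLKO cells with IFN-γ, the level in replicate 2 was above that in replicate 1 for 9 of the 10 genes, as it was for 50.1% of all tested genes, and the ratio of replicate 2 to replicate 1 had a median of 1.31 over the 10 and 1.00 over all tested genes. It was 1.80 for H2-Aa, 1.55 for Cd74, 1.47 for H2-Ab1, 1.39 for H2-Eb1, 1.33 for Ctss, 1.30 for H2-DMa and 1.19 for H2-DMb1, and 1.07 for Ciita. A ratio over 1.5 was found in 6.6% of all tested genes and in 2 of the 10. In shDRG2 cells with IFN-γ the ratio ran from 0.881 for Ctss to 1.21 for H2-Eb1.
The genes upstream of class II had ratios from 0.797 to 1.12 over the 9 inducers and repressors in pLKO cells, with Irf1 at 1.01. Without pLKO IFN-γ replicate 1, the log2 fold change of shDRG2 over pLKO cells was 0.36 for H2-Aa (adjusted p = 0.287), 0.44 for Cd74 (adjusted p = 0.381) and 0.31 for H2-Ab1 (adjusted p = 0.488), and H2-Eb1 was at 0.30 (adjusted p = 0.504) and H2-DMa at 0.28 (adjusted p = 0.446). Without pLKO IFN-γ replicate 2 it was 1.21 for H2-Aa (adjusted p = 0.00259), 1.07 for Cd74 (adjusted p = 0.0167) and 0.87 for H2-Ab1 (adjusted p = 0.0212), and 6 of the 10 genes were called. Ciita moved less, at 0.32 without replicate 1 (adjusted p = 0.335) and 0.42 without replicate 2 (adjusted p = 0.164). With 1 library left in the group, that library is assumed to vary like those of the other groups.

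**Figure D4:**
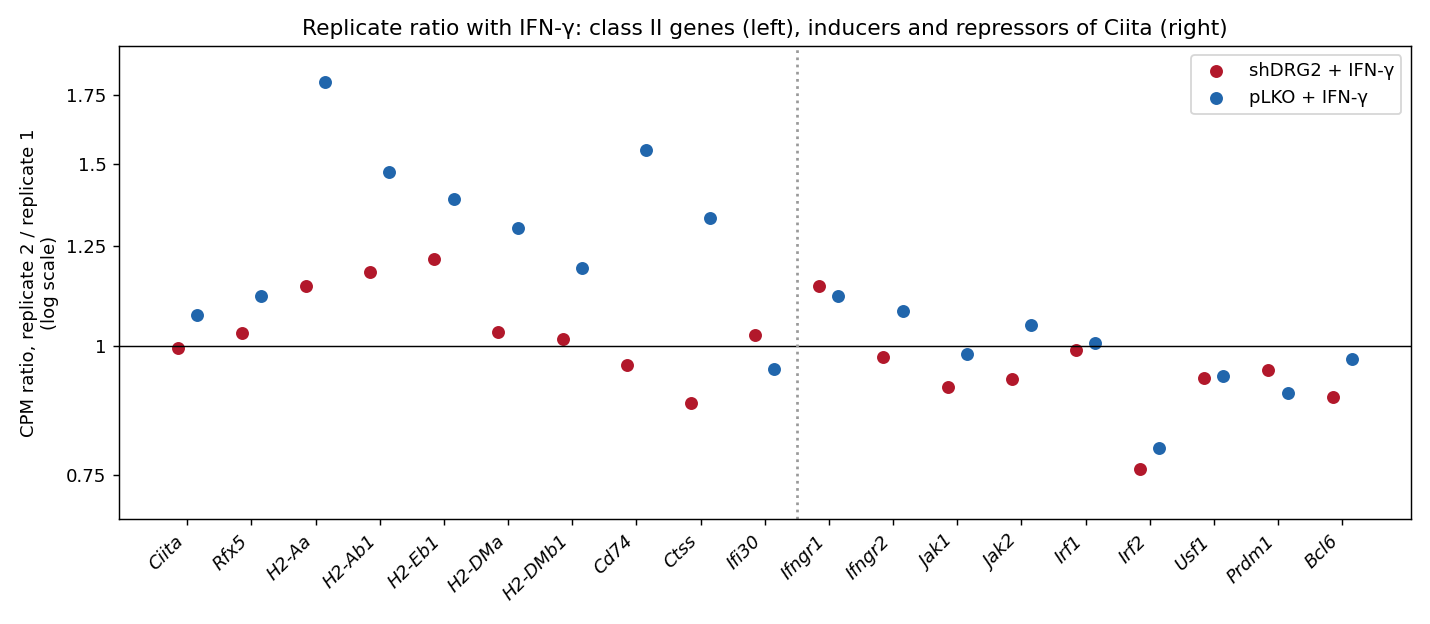
Ratio of CPM in replicate 2 to replicate 1 (log axis) within each line with IFN-γ, for the 10 class II genes (left of the dotted line) and 9 inducers and repressors of Ciita (right). In pLKO cells H2-Aa reaches 1.80 and Cd74 1.55, while Ciita is at 1.07 and Irf1 at 1.01.

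Without IFN-γ, only Rfx5, H2-DMb1 and Ifi30 would have passed the filter on the unstimulated libraries alone, and the other 7 genes were too low for a comparison of the lines. H2-DMb1 was at 6.96 ± 0.800 CPM in shDRG2 cells and 3.95 ± 0.503 CPM in pLKO cells (SD, n = 2 each), a rise of 0.82 on the log2 scale (SE 0.146, 95% interval 0.49 to 1.15, adjusted p = 0.0289). It was the only one of the 10 genes called, where 1.2% of tested genes were called, 0.467% higher and 0.733% lower. The libraries did not overlap, an arrangement with shDRG2 on top that H2-Aa and Rfx5 also had, and 21.1% of all tested genes. However, the call ended when any of the 4 unstimulated libraries was left out, with adjusted p = 0.260 without shDRG2 replicate 1, 0.0633 without shDRG2 replicate 2, 0.0966 without pLKO replicate 1 and 0.187 without pLKO replicate 2. It also ended without shDRG2 IFN-γ replicate 1 (adjusted p = 0.0595) and without shDRG2 IFN-γ replicate 2 (adjusted p = 0.0603). The log2 fold change stayed between 0.69 and 0.95 in all of these.
Rfx5 was at 0.14 (95% interval -0.10 to 0.38, adjusted p = 0.672) and Ifi30 at -0.09 (-0.35 to 0.17, adjusted p = 0.824). Ciita, at 1 count over the shDRG2 libraries and 1 over the pLKO libraries, allowed a ratio anywhere from 0.0142 to 87.6.

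The difference between the responses of both lines to IFN-γ was called for none of the 10 genes by edgeR or DESeq2, and none had an unadjusted p under 0.05. Over all tested genes edgeR called 0.00741%. For H2-DMb1 it was -0.16 on the log2 scale (95% interval -0.56 to 0.24), for Rfx5 -0.01 (-0.34 to 0.32) and for Ifi30 0.28 (-0.10 to 0.65). Without pLKO IFN-γ replicate 1 these were -0.28 for H2-DMb1, -0.09 for Rfx5 and 0.32 for Ifi30. The alternative fits include leaving out each library in turn. Over these fits the difference ran from -0.28 to -0.03 for H2-DMb1, from -0.15 to 0.13 for Rfx5 and from 0.12 to 0.47 for Ifi30. For Ciita the difference was 0.25 with an interval from -4.19 to 4.68, which follows from the single counts without IFN-γ and bounds the difference hardly at all. The same limit holds for the rest of the 7 genes close to silent without IFN-γ, such as H2-Aa (-2.54, -9.95 to 4.87) and H2-DMa (0.74, -0.55 to 2.02). For these 7 genes the lack of a call does not show that the responses were alike. The comparisons of the lines with and without IFN-γ and the 2 responses share libraries, so their values are not independent of each other.

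Of 18 further class II pathway genes listed, 16 were found by symbol and 12 tested. After IFN-γ, 4 were called higher and 2 lower in shDRG2 cells, where 16.2% and 15.2% of all tested genes were, and 4 higher and 1 lower in pLKO cells, where 15.4% and 12.7% were. Lgmn, the gene of the lysosomal asparaginyl endopeptidase legumain, was at 105.6 and 102.6 CPM with IFN-γ, against 60.7 and 55.1 CPM without, in shDRG2 cells (log2 fold change 0.84, adjusted p = 1.50e-05), and gave 1.03 in pLKO cells (adjusted p = 4.00e-06). Sppl2a, the protease that removes the last membrane stub of the invariant chain, gave 0.86 in shDRG2 cells (adjusted p = 6.85e-05) and 0.78 in pLKO cells (adjusted p = 0.000149).
Ctsb, a lysosomal cysteine protease, gave 0.32 in shDRG2 cells (adjusted p = 0.0361) and 0.46 in pLKO cells (adjusted p = 0.00779). Ctsl, whose protease replaces cathepsin S in thymic epithelium, was not called in shDRG2 cells (0.10, adjusted p = 0.477) and was called in pLKO cells (0.33, adjusted p = 0.0271), and the difference between the lines was not called (-0.23, 95% interval -0.53 to 0.07). H2-DMb2, the near copy of H2-DMb1, is one of the 4 in shDRG2 cells and was tested only because of its counts with IFN-γ. It had 33 counts with IFN-γ and 0 without in shDRG2 cells, and 14 with and 0 without in pLKO cells. In shDRG2 cells the ratio was 9.58 against the floor of 3 counts, and the counting interval at 0 counts began at 7.36.
Of the genes that fell, Nfya, an NF-Y subunit, gave -0.33 in shDRG2 cells (adjusted p = 0.0414) and -0.39 in pLKO cells (adjusted p = 0.0215), and the protease gene Ctsd gave -0.33 in shDRG2 cells (adjusted p = 0.0139) and -0.16 in pLKO cells (adjusted p = 0.193). The RFX subunits Rfxank (0.02 and 0.04 in shDRG2 and pLKO cells) and Rfxap (-0.22 and -0.17) were not called in either line, nor were Nfyb, Nfyc and Creb1. H2-Ob had 0 counts in every library, H2-Oa 2 counts or fewer, and H2-Eb2 16 to 20 counts over the IFN-γ libraries of a line. Between shDRG2 and pLKO cells none of the 12 was called by edgeR or DESeq2. Over all tested genes edgeR called 1.67% with IFN-γ and 1.2% without. At an unadjusted p under 0.05 there was 1 of the 12 with IFN-γ, and 1616 of all 13500 tested genes. Without IFN-γ there were 3 of the 12, and 1723 of all tested genes.

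Of 9 inducers and repressors of Ciita, 7 were called higher and 1 lower after IFN-γ in each line, where 31.4% of all tested genes were called in shDRG2 cells and 28.1% in pLKO cells. Irf1, whose product acts on the Ciita promoter that IFN-γ uses, was at 730.6 and 723.5 CPM with IFN-γ, against 13.4 and 11.4 CPM without, in shDRG2 cells (log2 fold change 5.87, SE 0.151, adjusted p = 7.72e-10), and at 578.5 and 582.0 CPM with IFN-γ, against 9.59 and 13.4 CPM without, in pLKO cells (5.66, SE 0.150, adjusted p = 1.02e-09). Irf2 gave 1.47 in shDRG2 cells and 1.37 in pLKO cells, Usf1 0.99 and 0.88, Jak2 0.89 and 0.92, and Jak1 0.42 and 0.60. Ifngr2, a receptor chain, fell by 0.52 in shDRG2 cells (adjusted p = 0.00141) and by 0.45 in pLKO cells (adjusted p = 0.00394).
Prdm1 and Bcl6, genes of repressors known to act on Ciita in lymphoid cells, were among the 7. Bcl6 gave 2.62 in shDRG2 cells and 2.55 in pLKO cells, and Prdm1, tested only because of its counts with IFN-γ, had 240 and 277 counts with IFN-γ in shDRG2 cells, against 0 and 0 without, and 177 and 194 counts with IFN-γ in pLKO cells, against 0 and 1 without. With IFN-γ, Irf1 was at 0.33 (95% interval 0.06 to 0.59, adjusted p = 0.272) in shDRG2 over pLKO cells. None of the 9 was called between the lines by edgeR or DESeq2, where edgeR called 1.67% of all tested genes with IFN-γ and 1.2% without. At an unadjusted p under 0.05 there was 1 of the 9 with IFN-γ and 1 without. Over all 13500 tested genes there were 1616 with IFN-γ and 1723 without.

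Other genes followed the profile of Ciita over the 4 groups closely. Likeness was measured as the root-mean-square distance between group means of log2 CPM (prior count 2), each gene centred on its own mean, and is given as a description over 4 group means of 8 libraries. The 5 nearest tested genes outside the list were F830016B08Rik (0.117), Prph, the gene of the intermediate filament peripherin (0.133), the immunity-related GTPase gene Igtp (0.147), Gm4841 (0.184) and Olfr56 (0.203). F830016B08Rik was at 139.9 and 132.6 CPM in shDRG2 cells and 83.8 and 150.6 CPM in pLKO cells with IFN-γ, so its pLKO replicates differed more than those of Ciita. Prph was at 697.8 and 647.1 CPM in shDRG2 cells and 441.2 and 469.3 CPM in pLKO cells with IFN-γ, and at 0.336 to 0.532 CPM without it. Within the list, H2-Ab1 (0.288), H2-Aa (0.404), H2-Eb1 (0.413) and Cd74 (0.518) lay nearest to Ciita, and Rfx5 (4.76) and Ifi30 (5.47) farthest. The 5 nearest to Cd74 were Gm12185 (0.254), Apol6 (0.277), Gbp6 (0.280), Zbp1 (0.299) and Gm4951 (0.346). With IFN-γ, Prph, Igtp, Gm4841, Olfr56, Gm12185, Apol6 and Zbp1 had both shDRG2 libraries above both pLKO libraries, as the class II genes did. Over all tested genes 20.2% had this arrangement. F830016B08Rik, Gbp6 and Gm4951 did not. The profile by which these genes were picked includes that difference between the lines.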

How the data were processed

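The deposited values are estimated counts (expected counts) per gene, 1 column per library, which the authors had not scaled between libraries. Per the submitters' processing notes STAR and Salmon 1.5.2 were used with mm10, and the annotation is not given in the sources used here. Gene names turned into dates (27 entries, at most 0.212% of a library's counts) were left out, so Marchf1 and Marchf8 were not analysed here. Counts were rounded and fitted in R 4.3.3 with edgeR 4.0.16 (TMM factors 0.973 to 1.04, filterByExpr, 1 coefficient per group over 8 libraries, quasi-likelihood F test, Benjamini-Hochberg adjustment over 13500 genes). The procedure was also run on simulated data. These held small changes and no genes made silent only without IFN-γ, so that run does not cover the class II genes close to silent at rest. Residual degrees of freedom were 4 and prior degrees of freedom 6.10. CPM uses TMM-scaled totals, and lengths are GENCODE M21 exon unions. All members were named, and the 18 pathway genes, 9 inducers and repressors, markers and nearest profiles followed a written rule, from which 2 listed genes are not reported here. Members and lists were chosen with earlier results of these data known. Alternatives were DESeq2 1.42.0, other scaling, no filter, a replicate block, each library left out, H2-DMb1 with H2-DMb2, and the longest transcript.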

Additional observations from a re-analysis of the deposited data

How the results depend on the processing

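With IFN-γ, the number of the 10 class II genes called between shDRG2 and pLKO cells, 1 in the main analysis, was 6 with DESeq2 and 7 without a filter, and 0 to 6 when 1 library was left out. Over all genes that comparison called 226, against 653 without a filter and 44 to 202 with 1 library left out. Without IFN-γ the comparison of the lines called 162 genes, against 302 with DESeq2, 678 without a filter and 27 to 167 with 1 library left out, and 0 or 1 of the 10. IFN-γ called 4233 genes in shDRG2 cells (2720 to 4297 with 1 library left out) and 3796 in pLKO cells (2482 to 3749), and 9 or 10 of the 10 genes throughout. The difference between responses called 1 gene, against 7 with DESeq2, 58 without a filter and 1 or 2 with 1 library left out. The cause of these changes was not tested. Library-size and upper-quartile scaling left the calls of the 10 genes as they were in all 5 comparisons. The labels do not say that replicate numbers mark shared cultures or days. The difference between replicates 1 and 2 correlated across genes between each pair of groups at 0.107 to 0.274. With the replicate number as a block, 675 genes and 7 of the 10 were called between the lines with IFN-γ, 673 genes and 1 of the 10 without it, and 2 genes for the difference between responses. Depth limits those comparisons of the 7 genes that use the libraries without IFN-γ, where these genes were near 0 counts.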

Other observations

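Ratios between class II genes were taken within each IFN-γ library, per kb of exon. H2-Aa over H2-Ab1 was 0.644 and 0.624 in shDRG2 cells and 0.501 and 0.612 in pLKO cells, with pLKO replicate 1 the lowest. H2-Eb1 over H2-Ab1 was 1.35 and 1.39 in shDRG2 cells and 1.48 and 1.39 in pLKO cells, and H2-DMa over H2-DMb1 was 0.391 and 0.397 in shDRG2 cells and 0.433 and 0.474 in pLKO cells. Cd74 over Ciita was 19.6 and 18.8 in shDRG2 cells and 12.3 and 17.7 in pLKO cells. Cd74 over H2-Ab1 was 7.27 and 5.91 in shDRG2 cells and 5.69 and 5.97 in pLKO cells. Cd74 over H2-Aa was 11.3 and 9.46 in shDRG2 cells and 11.4 and 9.77 in pLKO cells. These ratios were not tested.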
